A study of Mus musculus with 6 samples.

Results

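A set of 10 genes that mark or drive the step to differentiating spermatogonia were followed in whole mouse testes taken 5 days postpartum (dpp). They were *Kit*, *Stra8*, *Sohlh1*, *Sohlh2*, *Dmrt1*, *Dmrtb1*, *Rhox13*, *Prdm9*, *Ccnd2* and *Lin28b*, and were found by symbol in a deposited table of 54532 genes, in which all 10 had a row of their own. There were 6 samples, 3 of control (Ctrl) and 3 of conditional knockout (cKO) mice. In cKO mice the promoter of *Vasa* (*Ddx4*), a gene of germ cells, drove Cre to delete *Srsf1*, which encodes a splicing factor, with a floxed and a deleted allele (*Vasa*-Cre *Srsf1* Fl/del), whereas the genotype of Ctrl mice is given no more exactly than Ctrl. The deletion is therefore meant for germ cells alone, while the RNA came from germ cells and somatic cells together. The comparison asked how these genes behave when *Srsf1* is deleted in germ cells.

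Spermatogonia that leave the undifferentiated state respond to retinoic acid, a vitamin A derivative made in the tubule. They then switch on KIT, the receptor for KIT ligand from Sertoli cells, and STRA8, a retinoic acid-induced protein needed for entry into meiosis. SOHLH1 and SOHLH2 are germ-cell basic helix-loop-helix transcription factors of the same step, DMRT1 and DMRTB1 (also called DMRT6) are DM-domain factors that govern the change from mitosis to meiosis, and RHOX13 is a homeobox protein of differentiating spermatogonia. PRDM9 is a meiotic histone methyltransferase, cyclin D2 (*Ccnd2*) drives the G1 phase of the cell cycle, and LIN28B blocks the maturation of let-7 microRNAs. Several of these genes are not restricted to germ cells: *Kit* is also used by Leydig cells and mast cells, and *Dmrt1* and *Ccnd2* by Sertoli cells.

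Levels are given as FPKM, read fragments per kilobase of gene with a scaling for depth, and the 6 libraries held 15448191 to 18964743 reads. *Srsf1* itself, the check of the labels, averaged 86.6 ± 3.85 FPKM over Ctrl and 47.7 ± 3.48 FPKM over cKO samples (SD, n = 3 each), with no overlap. An extraction note in the sample records names retina in place of testis. The photoreceptor genes *Gnat1* and *Sag* stayed at 0.0944 FPKM or less in all samples, while *Amh* of Sertoli cells was at 257 FPKM or more and *Ddx4* of germ cells at 8.01 FPKM or more. The library Ctrl 2 stood apart. With each of 13 pan-germ-cell genes divided by its Ctrl mean, the list averaged 70.5% in Ctrl 1, 164.5% in Ctrl 2 and 65.0% in Ctrl 3, whereas cKO 1 to 3 gave 24.8%, 37.8% and 22.4%. Values without Ctrl 2 are therefore given for each of the 10 genes and for several of the lists and other genes.

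The stretches before the start sites of *Sohlh1* and *Stra8* are shown because they carry letters tied to the factors in question, and because these 2 genes had the lowest cKO share of the Ctrl level among the 5 of the 10 genes with a Ctrl mean above 10 FPKM. Each run covers the 250 bases before a RefSeq start on GRCm38.p6, with every CACGTG (the E-box read by many basic helix-loop-helix factors) and every AGGTCA (a half-site of the retinoic acid receptor) in capitals. *Sohlh1* lies at chr2:25847249-25847498 on the minus strand and *Stra8* at chr6:34920698-34920947 on the plus strand. The *Sohlh1* stretch borders the gene as deposited. The *Stra8* stretch lies inside the deposited gene (34920163 to 34939344), so its RefSeq start is not the deposited start.
*Sohlh1*: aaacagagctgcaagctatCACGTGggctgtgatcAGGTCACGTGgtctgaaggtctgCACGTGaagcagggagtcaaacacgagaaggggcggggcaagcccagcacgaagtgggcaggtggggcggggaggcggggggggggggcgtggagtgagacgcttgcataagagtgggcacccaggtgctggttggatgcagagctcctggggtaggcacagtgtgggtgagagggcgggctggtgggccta
*Stra8*: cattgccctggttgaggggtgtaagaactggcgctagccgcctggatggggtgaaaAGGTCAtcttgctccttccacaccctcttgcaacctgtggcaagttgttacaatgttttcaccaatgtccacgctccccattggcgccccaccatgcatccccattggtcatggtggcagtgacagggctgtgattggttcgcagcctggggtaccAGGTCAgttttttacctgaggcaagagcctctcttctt

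The *Sohlh1* stretch held 3 matches of CACGTG, starting 231, 211 and 192 bases before the start, and 1 match of AGGTCA that overlapped the middle one. Among 32851 such stretches in the RefSeq table, 20 (0.0609%) held 3 or more matches of CACGTG and 1978 (6.02%) held any. The *Stra8* stretch held 2 matches of AGGTCA, 194 and 38 bases before the start, where 446 stretches (1.36%) held 2 or more and 4607 (14.0%) held any on either strand. Of the 10 genes, 8 were in the RefSeq table, with 11 starts, and *Lin28b* held the only other match, 1 CACGTG 49 bases before its start. That RefSeq start also lies inside the gene as deposited. A match describes letters and not bound protein. Since the 2 stretches were shown for their matches, these shares are a description and not a test.

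Of the 10 genes, 7 (*Stra8*, *Sohlh1*, *Sohlh2*, *Dmrt1*, *Dmrtb1*, *Rhox13* and *Lin28b*) were lower in every cKO testis than in every Ctrl testis, and *Kit*, *Prdm9* and *Ccnd2* overlapped. The separation of 7 genes stands beside 12.8% of the 16206 tested genes that were lower in the same way. The same 7 genes had an unadjusted p under 0.05 in limma, with 9.31% of tested genes in that direction, and 0 of the 10 passed an adjusted p of 0.05, which was also so for 0% of all tested genes. This holds for limma on FPKM. With the count test DESeq2 at the same threshold, the study called genes in both directions. It reported *Stra8* as lower in cKO testes, also by RT-qPCR. With protein-coding genes alone, *Stra8*, *Sohlh1* and *Dmrtb1* passed in limma (adjusted p 0.04996, 0.0495 and 0.0295), where 1.33% of genes were called lower, and with limma voom on recovered reads 0 of the 10 passed, where 0.376% were called lower. On the log2(FPKM + 1) scale the median fold change was −0.96 for the 10 genes and 0.0027 for all tested genes. For the 10 genes it was −0.75 without Ctrl 2, −1.67 with a pseudocount of 0.1 FPKM and −1.89 in limma voom. In whole testes, fewer cells of a type and less RNA per cell cannot be told apart.

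**Figure D1:**
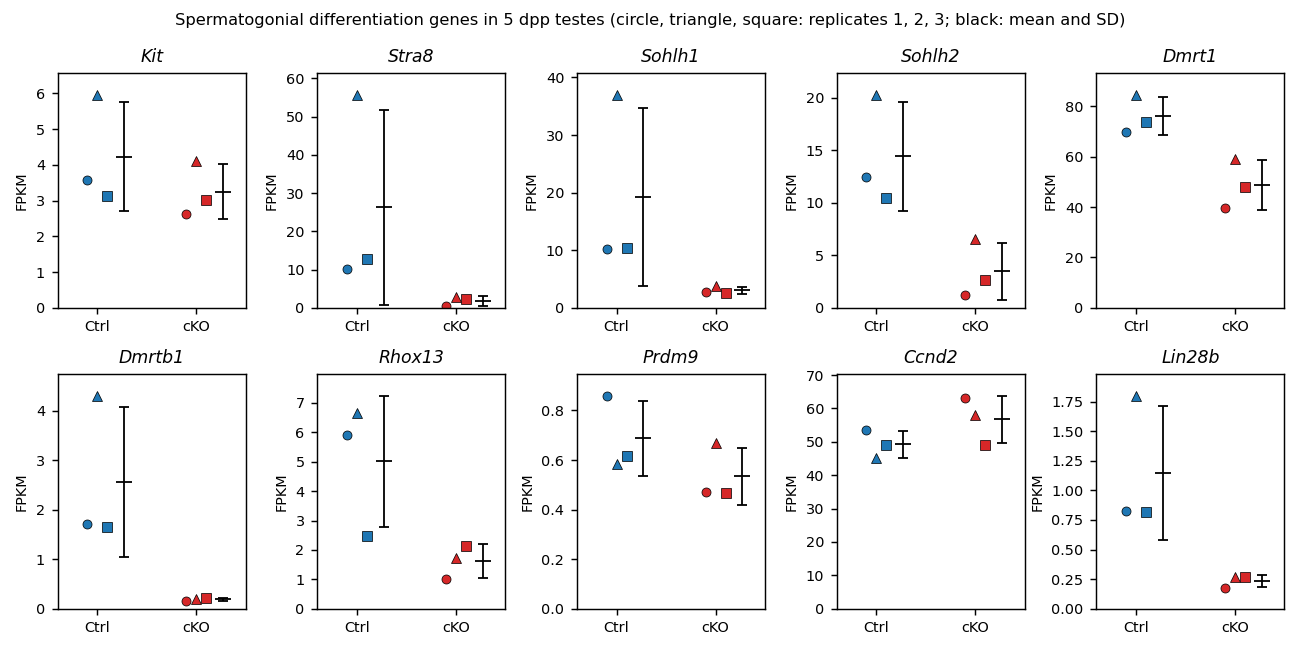
FPKM of the 10 genes in each sample, by group, on linear axes from 0, with circles, triangles and squares for replicates 1, 2 and 3 and black bars for the mean and SD (n = 3). Stra8, Sohlh1, Sohlh2, Dmrt1, Dmrtb1, Rhox13 and Lin28b are lower in all cKO samples, and Ctrl 2 is the highest sample for each of these 7 genes.

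In order of mean Ctrl level per length, *Dmrt1* stood first at 76.1 FPKM, followed by *Ccnd2* at 49.2, *Stra8* at 26.2, *Sohlh1* at 19.2, *Sohlh2* at 14.4, *Rhox13* at 5.02, *Kit* at 4.23, *Dmrtb1* at 2.56, *Lin28b* at 1.15 and *Prdm9* at 0.687 FPKM. Among neighbours in this order, only *Dmrt1* with *Ccnd2* and *Sohlh2* with *Rhox13* did not overlap in their Ctrl samples.

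*Kit* (ENSMUSG00000005672, chromosome 5, 75574916 to 75656722, + strand), the receptor, held 3.58, 5.96 and 3.13 FPKM in Ctrl 1, 2 and 3, with 2.62, 4.10 and 3.01 FPKM in cKO 1, 2 and 3. The groups overlapped, because cKO 2 was above both Ctrl 1 and Ctrl 3. The mean of 3.25 ± 0.764 FPKM (SD, n = 3) in cKO testes was 76.8% of the Ctrl mean of 4.23 ± 1.52 FPKM (SD, n = 3), and 96.7% of it when Ctrl 2 was left out. On the log2(FPKM + 1) scale the fold change was −0.28 (95% confidence interval −0.79 to 0.24, limma adjusted p 0.568), and −0.05 without Ctrl 2. The samples held 368 to 1012 reads of *Kit* each.

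*Stra8* (ENSMUSG00000029848, chromosome 6, 34920163 to 34939344, + strand) had the lowest fitted fold change of all 16206 tested genes on the log2(FPKM + 1) scale in all 6 samples. Its Ctrl levels of 10.1, 55.8 and 12.8 FPKM rested on 295, 1914 and 384 reads, and its cKO levels of 0.388, 2.82 and 2.33 FPKM rested on 11, 85 and 65 reads. The groups did not overlap but spread widely, with an SD of 97.6% of the mean in Ctrl and 69.7% in cKO testes. The lowest sample, cKO 1, had a counting interval (exact Poisson, 95%, counting error only) of 0.194 to 0.694 FPKM, which did not reach the level in the other cKO samples. In the mean, cKO testes held 7.04% of the Ctrl level, or 16.1% without Ctrl 2. The log2 fold change was −2.98 (SE 0.651, limma adjusted p 0.124), and −2.25 without Ctrl 2 (limma adjusted p 0.148). The rank of *Stra8* belongs to this scale, which understates the change of low genes. As a share of the Ctrl mean, *Gm44* was lower still, with means of 6.70 FPKM (Ctrl) and 0.398 FPKM (cKO).

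*Sohlh1* (ENSMUSG00000059625, chromosome 2, 25842995 to 25847248, − strand) held 10.2, 37.0 and 10.3 FPKM in Ctrl 1, 2 and 3, against 2.76, 3.72 and 2.56 FPKM in the cKO samples. Its 3 cKO samples lay close together (SD 20.5% of the mean), and Ctrl 1 and Ctrl 3 differed by little. On average, cKO testes had 15.7% of the Ctrl level, or 29.3% without Ctrl 2. *Sohlh1* was the only gene of the 10 that passed the threshold in limma when Ctrl 2 was left out, with a log2 fold change of −1.50 and an adjusted p of 0.042, compared with −2.09 and 0.123 in all 6 samples.

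Its partner *Sohlh2* (ENSMUSG00000027794, chromosome 3, 55182028 to 55209957, + strand) was measured at 12.4, 20.3 and 10.5 FPKM in Ctrl 1 to 3, compared with 1.26, 6.51 and 2.68 FPKM in cKO 1 to 3. Here the cKO samples were the more uneven, with an SD of 77.8% of the mean, and cKO 2 the highest of them. The cKO mean was 24.2% of the Ctrl mean and 30.4% without Ctrl 2, with a log2 fold change of −1.90 (SE 0.431, limma adjusted p 0.132).

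Of the DM-domain genes, *Dmrt1* (ENSMUSG00000024837, chromosome 19, 25505618 to 25604329, + strand) was the most abundant, with Ctrl levels of 70.0, 84.7 and 73.7 FPKM and cKO levels of 39.5, 59.2 and 48.1 FPKM. The groups did not overlap, and the Ctrl samples spread by an SD of only 10.1% of their mean. Its cKO mean was 64.3% of the Ctrl mean and 68.1% without Ctrl 2 (log2 fold change −0.64, SE 0.154, limma adjusted p 0.145). *Dmrtb1* (ENSMUSG00000028610, chromosome 4, 107676290 to 107684230, − strand) differed far more. It held 1.72, 4.31 and 1.65 FPKM in Ctrl samples, from 58, 171 and 57 reads, whereas 5, 7 and 7 reads gave 0.153, 0.201 and 0.218 FPKM in cKO samples. These counts are above the 3 reads taken as the floor, and the highest counting limit in a cKO sample, 0.448 FPKM, was below the lowest in a Ctrl sample, 1.25 FPKM. Its cKO mean was 7.44% of the Ctrl mean and 11.3% without Ctrl 2. Its log2 fold change was −1.50 (limma adjusted p 0.102) with a pseudocount of 1 FPKM and −3.54 in limma voom on recovered reads (adjusted p 0.054), since adding 1 FPKM understates the change of a gene at this level.

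*Rhox13* (ENSMUSG00000050197, chromosome X, 38121219 to 38129967, + strand) held 5.92, 6.65 and 2.48 FPKM in Ctrl samples and 1.02, 1.71 and 2.14 FPKM in cKO samples. The gap between groups was narrow, as Ctrl 3 with 36 reads lay just above cKO 3 with 29 reads. The cKO mean was 32.3% of the Ctrl mean and 38.6% without Ctrl 2, with a log2 fold change of −1.14 (SE 0.314, limma adjusted p 0.174).

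*Lin28b* (ENSMUSG00000063804, chromosome 10, 45376620 to 45486395, − strand) was low throughout, at 0.825, 1.80 and 0.818 FPKM in Ctrl samples and 0.175, 0.264 and 0.264 FPKM in cKO samples. Because the gene is long, between 25 and 40 reads still supported each cKO value. The cKO samples were all below the Ctrl samples, at 20.4% of the Ctrl mean and 28.6% of it without Ctrl 2. On the log2(FPKM + 1) scale the fold change was −0.77 (limma adjusted p 0.162), compared with −2.22 in limma voom on recovered reads (adjusted p 0.054).

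*Prdm9* (ENSMUSG00000051977, chromosome 17, 15543079 to 15564354, − strand) was the lowest of the 10, with 0.860, 0.585 and 0.616 FPKM in Ctrl samples against 0.472, 0.667 and 0.466 FPKM in cKO samples. Ctrl 2, the highest sample for 8 of the 10 genes, was its lowest Ctrl sample. Both groups overlapped. The log2 fold change, −0.14, had a 95% confidence interval of −0.46 to 0.19 (limma adjusted p 0.667). Its cKO mean was 77.9% of the Ctrl mean and 72.5% without Ctrl 2. Between 31 and 60 reads per sample limit what could be detected here.

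*Ccnd2* (ENSMUSG00000000184, chromosome 6, 127125162 to 127152193, − strand) was the only gene of the 10 with a higher mean in cKO testes. Its Ctrl levels were 53.4, 45.2 and 49.0 FPKM and its cKO levels 63.1, 58.0 and 49.0 FPKM, so that cKO 3 lay within the Ctrl range. The cKO mean was 115.2% of the Ctrl mean and 110.7% without Ctrl 2 (log2 fold change 0.20, 95% confidence interval −0.077 to 0.47, limma adjusted p 0.453). Exons of *Ccnd2* share 372 bases with *Gm43126* and 368 bases with *9330179D12Rik* on the opposite strand, and 6.31% of its 50-base stretches occur in transcripts of other genes. *Gm43126* was listed at 0 in Ctrl testes and *9330179D12Rik* had a Ctrl mean of 0.435 FPKM.

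**Figure D2:**
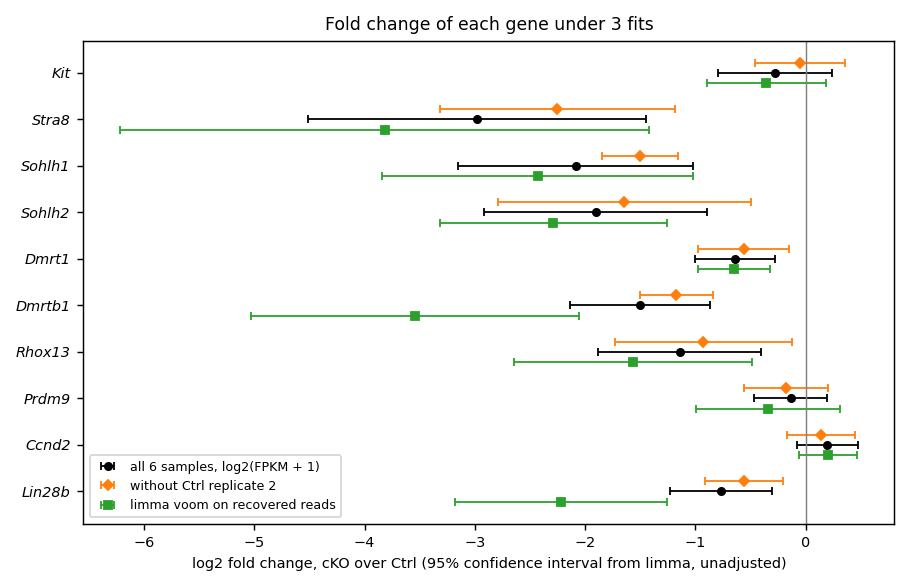
Log2 fold change of cKO over Ctrl for each gene, with 95% confidence intervals from limma that are not adjusted for the number of genes, in all 6 samples (black circles), without Ctrl replicate 2 (orange diamonds) and with limma voom on recovered reads (green squares). The intervals of Kit, Prdm9 and Ccnd2 include 0 in each fit, and the largest shift between fits is that of Dmrtb1, from −1.17 without Ctrl replicate 2 to −3.54 with voom.

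The genes also differed in how far they varied among Ctrl testes, a description that rests on Ctrl 2 alone and was added after the values were seen. Ctrl 2 over the mean of Ctrl 1 and Ctrl 3 was 4.86 for *Stra8*, 3.61 for *Sohlh1*, 2.56 for *Dmrtb1* and 2.19 for *Lin28b*. The ratio was 1.78 for *Kit*, 1.77 for *Sohlh2* and 1.58 for *Rhox13*, and 1.18 for *Dmrt1*, 0.882 for *Ccnd2* and 0.793 for *Prdm9*. For the 13 pan-germ-cell genes together it was 2.43, so that *Stra8*, *Sohlh1* and *Dmrtb1* were above the germ-cell list in Ctrl 2 and the other 7 genes below it.

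The list of 13 pan-germ-cell genes measures RNA and not the number of germ cells. The study counted VASA-positive cells per tubule at the age used here and at later ages. It reported germ cells as still present in cKO testes, with a significant reduction at the later ages. At the age used here it also reported fewer prospermatogonia, the cells expected to become spermatogonial stem cells. They were read as the share of FOXO1-positive cells with FOXO1 in the nucleus. Some germ cells of cKO testes at this age had, by its account, not completed homing, their move to the basement membrane. Whether fewer cells or less RNA per cell lowered the list was not tested. Each gene was set beside the list in the same library. A gene's level as a share of its own Ctrl mean was divided by the same share averaged over the 13 pan-germ-cell genes. On this scale a gene that moves with the germ-cell list stays near 100%, and a gene whose level holds while the list is lower goes above it. *Stra8*, *Sohlh1* and *Dmrtb1* were lower in all cKO samples than in any Ctrl sample also on this scale, where 0.512% of the 16206 tested genes were. As 89.5% of the tested genes were higher on this scale, that share does not place the 3 genes among germ-cell genes. Other germ-cell genes were not counted separately there. At least *Mov10l1*, itself in the list, and *Sox3* of undifferentiated spermatogonia were also lower there without overlap, so this is not particular to the 3 genes. *Dmrtb1* held 95.3%, 102.3% and 99.1% in Ctrl 1, 2 and 3, with 24.1%, 20.8% and 37.9% in cKO 1, 2 and 3. *Stra8* held 54.7%, 129.2% and 75.3% in Ctrl samples and 5.97%, 28.5% and 39.7% in cKO samples. *Sohlh1* held 75.5%, 117.3% and 82.9% in Ctrl samples and 58.1%, 51.3% and 59.5% in cKO samples, the narrowest gap of the 3 genes as a ratio.

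*Sohlh2*, *Rhox13* and *Lin28b* overlapped between the groups on the scale relative to the germ-cell list, with cKO means of 79.4%, 120.7% and 75.1% and Ctrl means of 106.7%, 108.0% and 102.3%. *Kit*, *Dmrt1*, *Prdm9* and *Ccnd2* were higher there in every cKO sample, as were 89.5% of the tested genes, since the list by which all are divided averaged 28.3% of its Ctrl level in cKO testes. Their cKO means were 275.1%, 232.3%, 278.9% and 424.7%, and their Ctrl means 106.7%, 115.7%, 122.4% and 121.1%. An exact permutation test (two-sided) gave a p of 0.1 for each of the 7 genes without overlap, the smallest that 3 against 3 samples allow, and 0.3 to 0.5 for the other 3 genes. Any gene without overlap gets this p of 0.1, so the test only restates the separation. The counts of 3 lower and 4 higher genes were the same when the list was summarised by its median or replaced by *Ddx4* alone, and also without Ctrl 2. The cKO level over the Ctrl level on this scale was 0.286 for *Stra8*, 0.613 for *Sohlh1* and 0.279 for *Dmrtb1*, and 0.379, 0.708 and 0.283 without Ctrl 2.

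**Figure D3:**
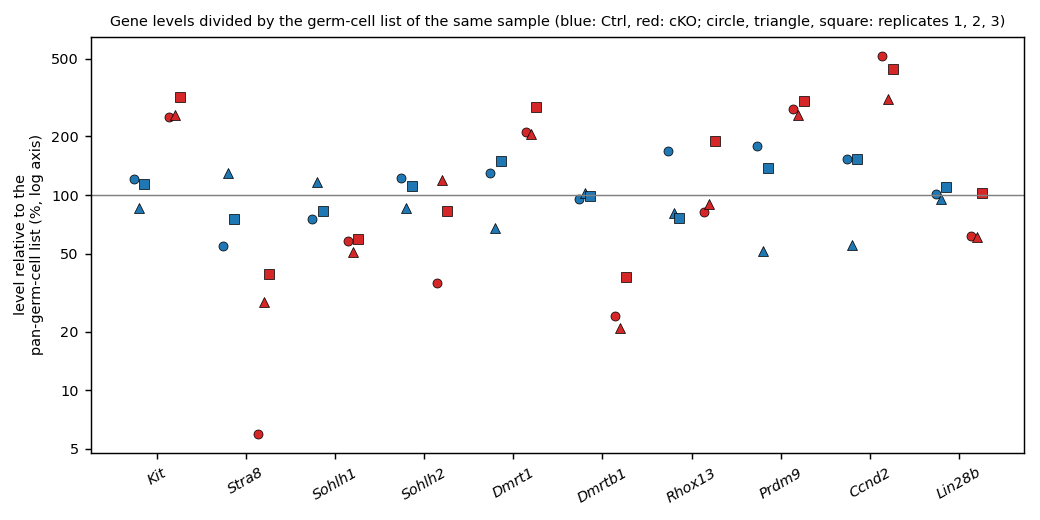
Level of each gene as a percent of its Ctrl mean, divided by the average of the same percent over 13 pan-germ-cell genes in the same sample, on a log axis, with blue for Ctrl, red for cKO, and circles, triangles and squares for replicates 1, 2 and 3. Stra8, Sohlh1 and Dmrtb1 lie lower in all cKO samples, and Kit, Dmrt1, Prdm9 and Ccnd2 lie higher in all cKO samples.

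The markers of other cells in the testis were read beside these values. For each list that follows, the counts without overlap stand beside 12.8% of all tested genes lower and 10.3% higher. These shares hold for all 6 samples. They were not computed without Ctrl 2, where fewer samples separate more readily. Of the 13 pan-germ-cell genes tested, 11 were lower without overlap, with a median log2 fold change of −1.61 (−1.20 without Ctrl 2), from −2.25 for *Dazl*, an RNA-binding protein of germ cells, to −0.48 for *Piwil4*, a piRNA-binding protein. The summed level of this list ran from 181.4 to 436.8 FPKM in Ctrl and from 45.6 to 89.7 FPKM in cKO samples. Its part in the lower levels of the differentiation genes was not tested beyond the ratios given above.

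For the 14 Sertoli-cell genes the summed level ranged from 2783 to 3614 FPKM in Ctrl and from 3294 to 3658 FPKM in cKO samples, and the groups overlapped. Of the 14, 4 were lower and 1 was higher without overlap (8 and 1 without Ctrl 2), between −0.99 for *Cldn11*, a tight-junction protein, and 0.77 for *Amh*, the anti-Müllerian hormone. Leydig-cell genes, of which 8 of 9 were tested, summed to 647.1 to 840.5 FPKM in Ctrl and 877.7 to 986.2 FPKM in cKO samples, with no overlap, and 4 of the 8 were higher without overlap (5 without Ctrl 2). They ran from −0.04 for *Star*, which carries cholesterol into mitochondria, to 0.77 for *Insl3*, a Leydig-cell hormone, and 3 of them had an unadjusted p under 0.05 in limma, with 6.6% of all tested genes higher in that way. The part of Leydig cells in the level of *Kit* was not tested.

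Mast-cell genes, the other known carriers of *Kit*, summed to 12.5 to 28.1 FPKM in Ctrl and 5.81 to 16.0 FPKM in cKO samples. The groups overlapped for each of the 5 tested, from *Tpsb2* at −0.82 to *Hdc* at −0.40 on the log2 scale, and *Fcer1a* was listed at 0 in all samples. The 8 interstitial and endothelial genes summed to 582 to 609 FPKM in Ctrl samples, against 437 to 592 FPKM in cKO samples, and of these genes 2 were lower and 3 higher without overlap, between −0.60 for *Myh11*, a smooth-muscle myosin, and 0.39 for *Pecam1*, an endothelial surface protein.

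**Figure D4:**
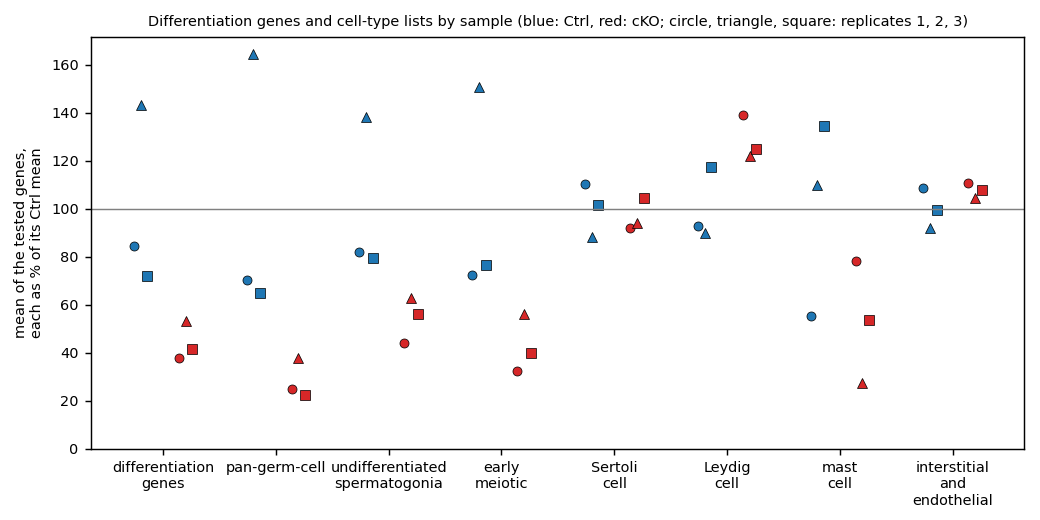
Mean of the tested genes of each list in each sample, each gene as a percent of its Ctrl mean, with blue for Ctrl, red for cKO, and circles, triangles and squares for replicates 1, 2 and 3. The differentiation genes average 84.6%, 143.4% and 72.1% in Ctrl samples 1 to 3, compared with 37.7%, 53.0% and 41.7% in cKO samples 1 to 3, and Ctrl 2 is the highest sample of the 3 germ-cell lists beside them.

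Around KIT, the pathway was read from ligand to effectors. *Kitl*, the ligand made by Sertoli cells, held 65.8, 58.5 and 67.2 FPKM in Ctrl 1 to 3, against 58.3, 51.1 and 53.0 FPKM in cKO 1 to 3. The cKO samples were lower without overlap, with Ctrl 2 and cKO 1 almost level, and the log2 fold change was −0.23 (limma adjusted p 0.296). Of the 14 genes of KIT signalling, 2 were lower and 1 was higher without overlap, near the shares of 12.8% and 10.3% among all tested genes, and the median log2 fold change was 0.06. The lowest was *Foxo1*, a transcription factor held back by AKT, at −0.29, and the highest *Akt1*, a kinase downstream of the receptor, at 0.23.

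Upstream of *Stra8*, 13 of 16 genes that make, break down, carry or sense retinoic acid were tested. Of these, 2 were lower and 2 higher without overlap, also near those shares, with a median log2 fold change of 0.07. Without Ctrl 2 the counts were 3 and 3, with no share of all tested genes computed. *Crabp1*, a cellular retinoic acid-binding protein, was the lowest, with 11.5, 45.1 and 15.0 FPKM in Ctrl samples against 2.85, 5.00 and 2.26 FPKM in cKO samples, with a log2 fold change of −2.31 (limma adjusted p 0.112) and of −1.74 without Ctrl 2. *Crabp2*, another binding protein of this family, was the highest at 0.33, with overlapping groups. The other gene lower without overlap was *Aldh1a2*, an enzyme that makes retinoic acid, at −0.71 (limma adjusted p 0.116). The 2 higher genes were *Rdh10* at 0.26 and *Rxra* at 0.18, and these genes were named after their values were seen. Downstream, 12 of the 15 early meiotic genes in the table were tested, and 8 were lower without overlap, where 12.8% of all tested genes were, and 0 higher, with a median of −0.86 (−0.64 without Ctrl 2). *Smc1b*, a meiotic cohesin subunit, stood lowest at −2.23, and *Ythdc2*, an RNA helicase needed for meiosis, highest at 0.0027. *Gm4969*, the gene of the STRA8 partner MEIOSIN, named here after its values were seen, overlapped between groups, with means of 0.819 ± 0.158 FPKM (Ctrl) and 0.751 ± 0.173 FPKM (cKO; SD, n = 3 each).

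Among genes of undifferentiated spermatogonia, from which the differentiating cells arise, 13 of the 17 tested were lower without overlap, set against 12.8% of all tested genes, with a median log2 fold change of −0.72 compared with −0.96 for the 10 differentiation genes. By RT-qPCR, the study found *Gfra1*, *Pou5f1*, *Plzf* (*Zbtb16*) and *Taf4b* of this list lower in cKO testes and *Nanos3* unchanged. Each of these, *Nanos3* included, was lower without overlap here. *Sox3*, a transcription factor at the border between the states, was the lowest at −2.61 (limma adjusted p 0.066) and passed the threshold without Ctrl 2, at −2.19 (limma adjusted p 0.0397), and *Utf1*, a chromatin factor of stem-like spermatogonia, was the highest at 0.37, with overlapping groups.

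The families of 3 of the genes were compared as well. In the DMRT family 5 of 9 genes were tested, of which 4 were lower without overlap (12.8% of all tested genes), *Dmrt1* and *Dmrtb1* among them, and *Dmrtb1* at −1.50 and *Dmrt3* at 0.10 were the ends of the range. Among the 9 D-type cyclins and their partners, 1 was lower and 2 were higher without overlap, beside 12.8% and 10.3% of all tested genes. The higher 2 were *Ccnd3* and *Cdkn1b*. *Ccnd1* was the lowest and the only one lower without overlap, with 5.47, 6.13 and 5.27 FPKM in Ctrl samples against 2.27, 3.19 and 3.01 FPKM in cKO samples. Its log2 fold change was −0.80 (limma adjusted p 0.086, and 0.039 in limma voom) and −0.75 without Ctrl 2, opposite in sign to the 0.20 of *Ccnd2*, whose groups overlapped. *Cdkn1b*, an inhibitor of cyclin-dependent kinases, was the highest at 0.34. *Lin28a*, the paralogue of *Lin28b*, held 5.63, 14.1 and 4.95 FPKM in Ctrl samples against 1.34, 3.42 and 2.49 FPKM in cKO samples, and it was the lowest of the 8 genes of let-7 processing tested, at −1.35 (−0.93 without Ctrl 2), while *Tut4*, which tails let-7 precursors, was the highest at 0.17.

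Last, 12098 protein-coding genes that averaged 1 FPKM or more were ranked by the root mean square difference between their profile over the 6 samples and that of 3 of the genes, each profile on the log2(FPKM + 1) scale and centred on its own mean. The ranking used both groups and describes likeness only. Nearest to *Sohlh1* were *Mageb4*, *Nxf2*, *Sycp3*, *Crabp1* and *Gm44*, at differences of 0.15 to 0.20. Nearest to *Stra8* were *Tuba3a*, *Pramef12*, *Gm44*, *Tuba3b* and *Dazl*, at 0.46 to 0.53. Nearest to *Kit* were *Glmn*, *Plcg2*, *Cbx7*, *Rab11fip4* and *Kdf1*, at 0.03 to 0.09. This difference grows with the size of a gene's own changes, so it ranks genes for 1 gene and is not comparable between the 3 genes. *Gm44* was among the nearest 5 of both *Stra8* and *Sohlh1*. *Tuba3a* and *Tuba3b* are near-identical copies, so their single values are uncertain.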

How the data were processed

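Polyadenylated RNA of 3 Ctrl and 3 cKO testes at 5 dpp was sequenced by the authors as paired-end reads, aligned with HISAT2 (2.0.5, per the submitters' notes, which name mm10), counted per gene with featureCounts and deposited as FPKM. The annotation release is not given in the sources used here. Samples were grouped by their titles, and the study describes them as biological replicates. FPKM times gene length was a whole multiple of 1 step per sample (within 0.01) for 100% of values, so reads per gene were recovered. Of the 10 genes, all had the coordinates and exon lengths of GENCODE M21 (GRCm38), and apart from *Ccnd2* (6.31%) and *Prdm9* (0.672%) none shared a 50-base stretch with transcripts of other genes.

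Log2(FPKM + 1) values of 16206 genes that averaged 0.5 FPKM or more were fitted with limma 3.58.1 (R 4.3.3), with group as the only term, a mean-variance trend, two-sided p and Benjamini-Hochberg adjustment over all tested genes, at a threshold of 0.05. The filter used the mean over all 6 samples, so a gene low in cKO samples could pass through its Ctrl level alone. No overlap means that every cKO sample was beyond every Ctrl sample. Fold changes on this scale understate the change of low genes. The tests were tried on simulated reads. Promoter stretches came from RefSeq (GRCm38.p6). Beside the 10 genes, the lowest and the highest gene of each list were named, with the 5 nearest profiles of *Kit*, *Stra8* and *Sohlh1*. The genes and lists were chosen with earlier results of these data known.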

Additional observations from a re-analysis of the deposited data

How the results depend on the processing

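All 148 fold changes of the 10 genes under the alternatives kept their direction, and 143 kept their side of the threshold. The other 5 newly passed in limma: *Stra8* (adjusted p 0.04996), *Sohlh1* (0.0495) and *Dmrtb1* (0.0295) with protein-coding genes only, *Stra8* with the replicate block (0.0496) and *Sohlh1* without Ctrl 2 (0.042). Of the 10 genes, 0 passed in limma in all 6 samples (7 at an unadjusted p under 0.05), 3 with protein-coding genes only, 1 with the replicate block and from 0 to 1 when each replicate was left out. The median of the 10 genes, −0.96, was −1.67 with a pseudocount of 0.1, −1.89 with voom and from −1.19 to −0.75 when each replicate was left out. Against 0 lower and 0 higher of all tested genes, there were 176 and 37 with protein-coding genes only, 61 and 22 with voom, 84 and 14 with the replicate block, 1 and 4 with TPM, 0 and 1 without the trend, and from 0 to 15 and from 0 to 3 when each replicate was left out. Of the other listed genes, 0 passed in all 6 samples, 17 with protein-coding genes only, 5 with voom, 13 with the block and from 0 to 1 when each replicate was left out. The cause was not tested. The number without overlap, 7, was 6 with a mean of at least 1 FPKM, which drops *Lin28b* and *Prdm9*, and 9 without cKO 2. The share of all tested genes was not computed for these settings, and fewer samples separate more readily. The labels tie same-numbered samples by number only, and their deviations correlated at 0.0663, 0.0162 and 0.0882. Both cKO 1 and cKO 3 correlated best with the Ctrl sample of their own number, and cKO 2 with Ctrl 1. Whether the samples were paired is not known from these values or the labels, so the block is not taken as a paired design. Relative to the germ-cell list, 3 genes were lower, and 4 without cKO 2 or without cKO 3, and 4 were higher in each alternative. The planned count tests on recovered reads with other packages were not run, because the deposited unit is FPKM.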

Other observations

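*Rhox13* lies on the X chromosome in a cluster of homeobox genes, and the other genes of this family were read after its values had been seen. Of 42 genes named *Rhox* in the table, 9 others passed the filter. Among these, 6 were lower in every cKO sample, where 12.8% of all tested genes were, 0 were higher, where 10.3% were, and 3 overlapped, and the log2 fold changes ran from −1.33 for *Rhox2d* to 0.05 for *Rhox5*. Of the lower genes, *Rhox1*, *Rhox2a*, *Rhox2d* and *Rhox7b* averaged under 0.5 FPKM in cKO samples. They passed the filter only through their Ctrl level, so the count is a description and not support for a fall of the family. *Rhox1* averaged 2.03 ± 0.497 FPKM over Ctrl and 0.422 ± 0.168 FPKM over cKO samples (SD, n = 3 each; limma adjusted p 0.086). For *Rhox10* the means were 5.38 ± 3.96 FPKM (Ctrl) and 1.40 ± 0.0329 FPKM (cKO), with a limma adjusted p of 0.202 and a log2 fold change of −1.24, or −0.77 without Ctrl 2. *Rhox8*, a gene of Sertoli cells, averaged 217.3 ± 6.19 FPKM over Ctrl and 172.7 ± 40.3 FPKM over cKO samples (limma adjusted p 0.368). The *Rhox2* and *Rhox7* copies resemble each other closely, so their single values are uncertain and they are not independent in the count.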
